A study of Mus musculus with 12 samples.

Results

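The p53 and stress-arrest genes Trp53, Cdkn1a, Gadd45a, Gadd45g, Sesn1 and Sesn2 were followed across microglia of adult and aged mouse CNS. These 6 genes were picked by name from the 770 genes of the NanoString nCounter Neuroinflammation panel, in which fluorescent barcodes on gene-specific probes are counted without amplification. All 6 were on the panel. Microglia, the resident macrophages of the CNS, were enriched with CD11b beads, fixed and permeabilized, stained for ERK1/2 phosphorylated at its activating sites, and sorted as YFP+, CD45 intermediate and Ly6G- cells. All mice were C57B6. Aged mice (over 80 weeks) gave P-ERK1/2 High (n = 4) and P-ERK1/2 Low (n = 4) microglia. Adult mice (12 to 20 weeks) gave microglia that were not separated by P-ERK1/2 (n = 4, of which sample 11 carries the submitters' mark of exclusion for poor quality and was kept out of all comparisons unless named). The labels call mice and cells untreated. The study's methods and legends describe a YFP reporter under the Cx3cr1 promoter and tamoxifen given shortly before sampling in adult mice and long before it in aged mice. Every sample was a pool from 1 male and 1 female mouse. P-ERK1/2 Low and adult microglia therefore differed in age, in time since tamoxifen and in the P-ERK1/2 gate, which cannot be told apart here.

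p53, the product of Trp53, is a transcription factor that is held at a low level by the ubiquitin ligase MDM2 and is stabilized after DNA damage and other stress. It raises transcription of Cdkn1a, whose product p21 inhibits cyclin-dependent kinases and stops the cell cycle, of Gadd45a, a growth arrest and DNA damage gene that acts on stress MAP kinases, and of Sesn1 and Sesn2, which encode sestrins that hold back mTORC1 and support antioxidant defence. Gadd45g belongs to the same family as Gadd45a and is induced mainly by cytokines and differentiation signals. p53 protein is controlled largely after translation, so Trp53 mRNA is not a measure of p53 activity, and Cdkn1a, Gadd45a and Sesn2 also respond to other stress pathways.

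Upstream sequences of 4 of the genes are shown because they show where the genes differ in letters that p53 is known to bind. They are the 250 bases before a RefSeq start site in GRCm38.p6, written 5′ to 3′ on the gene's strand. Capitals mark matches to the p53 decamer, the repeat of which a pair makes up a full p53 site, and to the octamer ATTTGCAT or its reverse complement ATGCAAAT. For Cdkn1a the start farther from the coding sequence, the first of its 2 RefSeq starts, is shown.
Cdkn1a, chr17:29090729-29090978, plus strand: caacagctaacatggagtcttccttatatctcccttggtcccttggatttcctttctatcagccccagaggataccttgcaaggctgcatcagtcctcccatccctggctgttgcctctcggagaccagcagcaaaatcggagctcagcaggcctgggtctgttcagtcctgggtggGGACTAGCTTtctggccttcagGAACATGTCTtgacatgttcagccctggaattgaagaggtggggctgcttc
Gadd45a, chr6:67037408-67037657, minus strand: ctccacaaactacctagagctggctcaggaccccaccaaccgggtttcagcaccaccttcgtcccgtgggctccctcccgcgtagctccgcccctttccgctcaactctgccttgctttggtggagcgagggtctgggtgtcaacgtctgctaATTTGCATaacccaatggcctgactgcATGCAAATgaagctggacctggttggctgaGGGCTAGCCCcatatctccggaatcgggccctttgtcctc
Trp53, chr11:69580109-69580358, plus strand: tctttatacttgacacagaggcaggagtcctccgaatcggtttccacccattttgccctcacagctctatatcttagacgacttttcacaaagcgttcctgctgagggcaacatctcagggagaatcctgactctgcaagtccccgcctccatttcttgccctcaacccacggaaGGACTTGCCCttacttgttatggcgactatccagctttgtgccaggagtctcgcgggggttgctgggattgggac
Sesn2, chr4:132510457-132510706, minus strand: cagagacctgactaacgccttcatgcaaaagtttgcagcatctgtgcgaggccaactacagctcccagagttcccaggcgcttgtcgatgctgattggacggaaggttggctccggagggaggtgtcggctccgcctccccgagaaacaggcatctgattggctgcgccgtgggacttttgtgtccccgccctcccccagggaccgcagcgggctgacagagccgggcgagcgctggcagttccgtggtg
The Cdkn1a window held decamers starting 73 and 51 bases before the start, GGACTAGCTT and GAACATGTCT. Gadd45a held GGGCTAGCCC at 40 bases and octamers at 97 and 70 bases, and Trp53 held GGACTTGCCC at 75 bases. Gadd45g held an octamer at 103 bases and no decamer, and the second Sesn1 start held a decamer at 173 bases. No decamer was found in these windows of Sesn2, of the first Sesn1 start or of the second Cdkn1a start. Both strands were searched, and 7.13% of 32851 mouse promoter windows of this length held the decamer and 1.60% the octamer. These matches are letters in a short window and were not tested for binding.

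The 6 genes lie on 6 chromosomes in GRCm38.p6. Trp53 (gene 22059) spans chr11:69580348-69591873, Cdkn1a (12575) chr17:29090979-29100722 and Gadd45a (13197) chr6:67035096-67037407. Gadd45g (23882) spans chr13:51846675-51848475, Sesn1 (140742) chr10:41810574-41908436 and Sesn2 (230784) chr4:132492804-132510456. The panel names each by its symbol, and the position of its probe within the transcript was not used here.

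All values are the deposited normalized values, in which the geometric mean of 13 housekeeping genes is 172.7 in every sample. In the 11 kept samples they are whole counts times 1 factor per sample, and dividing by that factor gave the raw counts quoted here. In excluded sample 11, 97.9% of values were whole in this sense and 16 were listed at 1. Summed raw counts ran from 650965 to 1539936 in P-ERK1/2 High, from 123798 to 157209 in P-ERK1/2 Low and from 137980 to 326575 in the 3 kept adult samples. The background was set per sample from its 8 negative probes, 2 SD above their mean, and came to 26.1 to 39.5 in High, 69.2 to 117 in Low and 37.9 to 95.1 in adult samples on the normalized scale, so low values were less certain in Low. The 8 microglial markers (P2ry12, Tmem119 and others) summed to 2851 to 3544 in High, 3371 to 3692 in Low and 3487 to 3801 in adult samples, with all 8 above background in at least 1 sample of High and adult and 6 of 8 in Low. Csf1r is the largest part of each sum (means of 1553, 2745 and 1846), and 4 of the 8 (P2ry12, Tmem119, Gpr34 and Sall1) were called higher in High than in Low, though in Low P2ry12 and Gpr34 were above background in 0 of 4 samples and Tmem119 and Sall1 in 1 of 4. In Low against adult Tmem119, Olfml3 and Fcrls were called lower, and in High against adult P2ry12 was called higher and Olfml3 and Fcrls lower. The 5 markers of astrocytes summed to 1200 to 1925 in High against 546 to 792 in Low and 418 to 646 in adult samples. The 6 markers of endothelium summed to 622 to 1257, 207 to 312 and 286 to 413, and 6 of T and NK cells to 234 to 984, 103 to 161 and 94.3 to 212, in the same order. In High against Low 2 of the 5 astrocyte markers (Gja1 and Sox9), 4 of the 6 of endothelium (Cldn5, Flt1, Emcn and Esam) and 2 of the 6 of T and NK cells (Cd3e and Cd3g) were called higher, beside 28.2% of the panel. Of these 8 only Gja1 and Sox9 were above background in more than 1 of 4 Low samples, and the astrocyte markers Slc1a3 (-0.998) and S100b (-0.45) had the opposite sign and were not called. Cd3e, with a mean of 357 in High, was the largest part of that sum, and Cd8a (0.18), Klrb1 (-0.15) and Nkg7 (-0.06) were not called. The part of these other cell types in the results was not tested, and in sorted pools fewer cells that express a gene cannot be told apart from less RNA per cell.

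A gene is referred to as called where limma on log2(value + 1) gave a log2 fold change of more than 1 in either direction at p below 0.01, the thresholds the study used. Adjusted p-values are limma's with Benjamini-Hochberg adjustment over all 770 genes, and log2 fold changes are on the log2(value + 1) scale. Gadd45a fell in both aged populations relative to adult microglia and was the sole member called in any comparison. Between the aged populations, High against Low, 0 of 6 members were called, while 37.8% of all panel genes were (28.2% higher and 9.61% lower). Unadjusted p was under 0.05 for 2 of the 6, beside 58.6% of the panel, a gene-by-gene test with unequal variances also called 0, beside 24.5%, and 1 of 6 had an adjusted p under 0.05 against 52.2% of the panel. In P-ERK1/2 Low against adult, 1 of 6 was called, Gadd45a as lower, beside 10.8% of the panel (8.05% higher and 2.73% lower), and 3 of 6 had an adjusted p under 0.05, beside 26.1%. In P-ERK1/2 High against adult, 1 of 6 was called, again Gadd45a as lower, beside 36.9% (29.2% higher and 7.66% lower), and 3 of 6 had an adjusted p under 0.05, beside 48.2%. The median log2 fold change of the 6 members was -0.40, 0.23 and -0.08 in these comparisons, beside 0.26, 0.10 and 0.35 over all panel genes. The comparisons with adult share the same 3 adult samples.

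**Figure D1:**
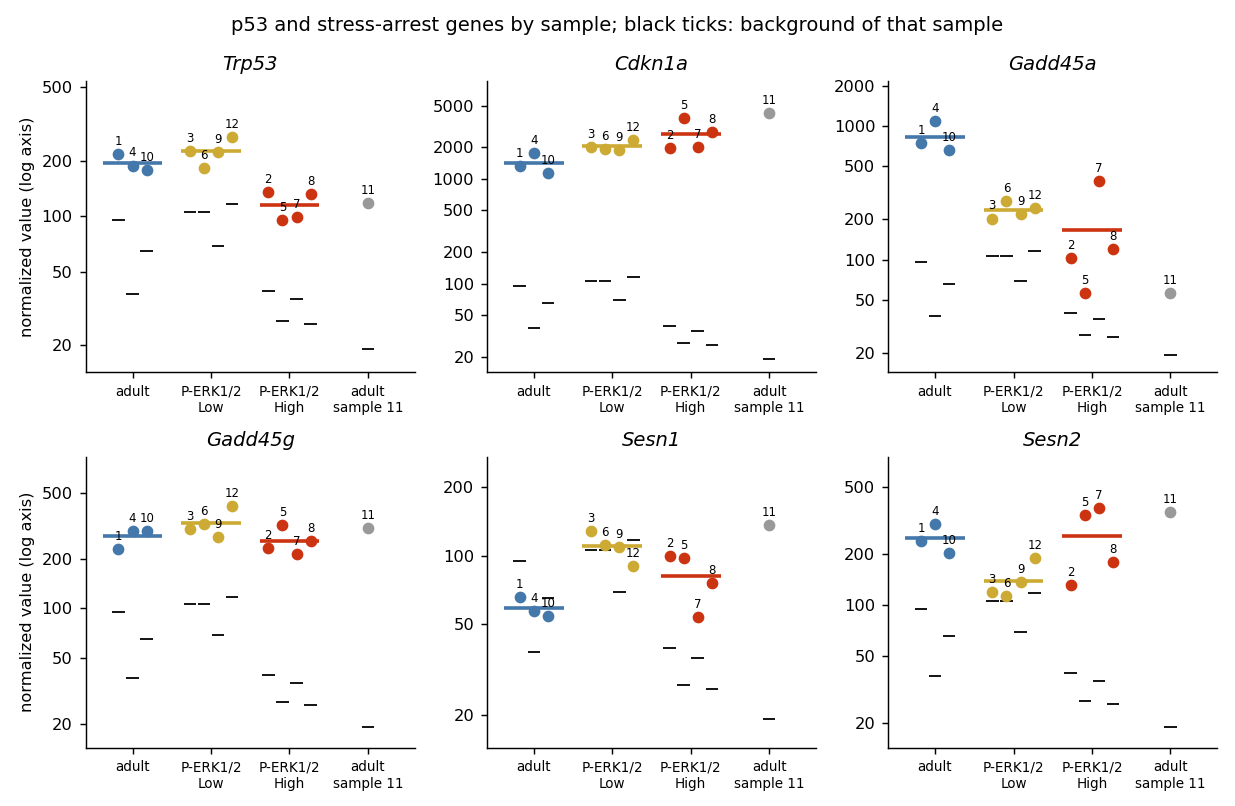
Normalized value of each gene (log axis) in every sample, numbered as in the labels, for adult, P-ERK1/2 Low, P-ERK1/2 High and the excluded adult sample 11. Horizontal lines are group means and black ticks the background of each sample. Gadd45a was at least 664.64 in each kept adult sample and at most 387.41 in the 8 aged samples, and all 4 P-ERK1/2 High samples had less Trp53 than any P-ERK1/2 Low sample.

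Trp53 was lowest in P-ERK1/2 High microglia. Its values were 217.81, 188.65 and 177.9 in adult samples 1, 4 and 10 (195 ± 20.7, SD, n = 3). In P-ERK1/2 Low samples 3, 6, 9 and 12 they were 227.01, 182.3, 222.04 and 270.75 (226 ± 36.2, SD, n = 4), and in P-ERK1/2 High samples 2, 5, 7 and 8 they were 136.34, 95.06, 98.82 and 131.77 (115 ± 21.6, SD, n = 4). All High samples lay below all Low and all kept adult samples, and Low and adult samples overlapped. Excluded adult sample 11 had 117.9, below every kept adult sample and within the range of High. High differed from Low by -0.96 on the log2 scale (SE 0.23, 95% interval -1.46 to -0.47, limma adjusted p = 0.0038), a 1.95-fold lower level that stopped short of the fold limit for a call. It was called, at -1.05, -1.03 and -1.06, when High sample 2, High sample 8 or Low sample 6 was left out. An exact two-sided permutation test gave p = 0.0286, the smallest that 4 against 4 allows. Trp53 was 1 of 6 members whose High and Low values did not overlap, where 49.4% of panel genes did not. High also differed from adult by -0.76 (SE 0.25, limma adjusted p = 0.027), and Low from adult by 0.20 (95% interval -0.19 to 0.60, limma adjusted p = 0.42). The raw counts ran the other way, at 88 to 133 in High and 52 to 83 in Low, so the lower Trp53 level in High is relative to the housekeeping genes and to the rest of the panel. In High against Low 1 of the 13 housekeeping genes was itself called higher (Supt7l, 3.34) and 1 lower (Lars, -1.225). The panel shares were 28.2% and 9.61%, and the median of the 13 was -0.52. Scaled to the 6 most stable of them, Trp53 was at -0.42.

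Cdkn1a, the p21 gene, was far above background in every sample and was lowest in adult microglia. Adult samples 1, 4 and 10 had 1331.84, 1787.5 and 1151.38 (1424 ± 328, SD, n = 3). Low samples 3, 6, 9 and 12 had 2032.94, 1942.2, 1899.38 and 2375.2 (2062 ± 216, SD, n = 4), and High samples 2, 5, 7 and 8 had 1995.12, 3837.57, 2001.05 and 2826.64 (2665 ± 874, SD, n = 4). Every aged sample was above every kept adult sample, and the aged groups overlapped. High was above adult by 0.87 (SE 0.30, limma adjusted p = 0.036) and Low above adult by 0.55 (SE 0.18, limma adjusted p = 0.063), neither of them called. High minus Low was 0.32 with a 95% interval from -0.23 to 0.87 (limma adjusted p = 0.30). Members whose values did not overlap with adult numbered 4 of 6 in Low, beside 36.5% of the panel, and 3 of 6 in High, beside 50.3%. Excluded adult sample 11 had 4305.67, above all other samples. Quantile normalization and scaling to summed counts turned High minus adult to -0.24 and -0.54, whereas it was called at 1.43 with the 6 most stable housekeeping genes and at 2.05 with positive controls. Low minus adult was 0.02 after quantile normalization, 0.165 with summed counts and -0.26 with positive controls.

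Gadd45a had the clearest difference between adult and aged microglia. Adult samples 1, 4 and 10 had 751, 1092.3 and 664.64 (836 ± 226, SD, n = 3). Low samples 3, 6, 9 and 12 had 203.29, 276.96, 219.37 and 242.03 (235 ± 31.9, SD, n = 4), and High samples 2, 5, 7 and 8 had 102.25, 55.75, 387.41 and 119.1 (166 ± 150, SD, n = 4). The 4 Low samples were close together, whereas High sample 7 was over 3 times the next High sample and above all Low samples. Against adult, Gadd45a in Low fell by 1.80 on the log2 scale (SE 0.21, limma adjusted p = 0.0010), a 3.48-fold lower level. In High against adult it fell by 2.67 on that scale (SE 0.53, limma adjusted p = 0.0024), a 6.36-fold lower level and the most negative log2 fold change of the 770 genes. With 4 against 3 samples the exact two-sided permutation test gave its smallest possible p, 0.0571, in both comparisons.

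The Gadd45a difference between High and Low was -0.87, with a 95% interval from -1.88 to 0.14 (limma adjusted p = 0.13). Without High sample 7 it was -1.40 and called, and without High sample 5 it was -0.48 and not called. Raw Gadd45a counts were 269 to 938 in adult, 59 to 82 in Low and 78 to 345 in High samples, all above background. Excluded adult sample 11 had a Gadd45a value of 55.85, close to the lowest High sample and far below the kept adult samples. With it added to the adult group, the difference was -0.84 in Low and -1.71 in High and was called in neither. In the gene-by-gene test with unequal variances, High against adult was not called either.

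Gadd45g, the cytokine-responsive relative, was not called in any comparison of the deposited values. Adult samples 1, 4 and 10 had 229.16, 294.62 and 294.02 (273 ± 37.6, SD, n = 3). Low samples 3, 6, 9 and 12 had 301.55, 322.53, 270.19 and 414.33 (327 ± 62.0, SD, n = 4), and High samples 2, 5, 7 and 8 had 232.5, 318.78, 214.48 and 255.93 (255 ± 45.5, SD, n = 4). The 3 groups overlapped. The 95% intervals of the log2 fold change were -0.18 to 0.69 for Low against adult, -0.65 to 0.45 for High against adult and -0.85 to 0.14 for High against Low, so differences of close to 2-fold in High against Low were within the error. Scaling decided this, since High minus Low was -0.63 with median-of-ratios scaling, -0.80 after quantile normalization, -1.37 and called with summed counts and 1.62 and called with positive controls, and High minus adult was -1.51 and called with summed counts.

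Sesn1 was the dimmest of the 6 relative to its background. Adult samples 1, 4 and 10 had 65.8, 57.06 and 54.36 (59.1 ± 5.98, SD, n = 3), of which 1 of 3 was above background. Low samples 3, 6, 9 and 12 had 128.75, 112.19, 109.68 and 90.25 (110 ± 15.8, SD, n = 4), of which 3 of 4 were, and High samples 2, 5, 7 and 8 had 99.82, 97.92, 53.9 and 76.02 (81.9 ± 21.6, SD, n = 4), of which all 4 were. All Low values lay above all adult values, and High values overlapped with both. Low differed from adult by 0.88 (SE 0.16, limma adjusted p = 0.0071), below the fold limit for a call. The raw Sesn1 counts were 22 to 49 in adult and 22 to 41 in Low samples and so overlapped fully, and the mean of the negative probes on the normalized scale was 13.5 to 28.1 in adult and 23.4 to 40.5 in Low. With the negative probes subtracted the difference was 1.01 and called. High minus adult was 0.43 (limma adjusted p = 0.22) and High minus Low was -0.45 (limma adjusted p = 0.14).

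Sesn2, the sestrin that stress pathways such as ATF4 also induce, was low in P-ERK1/2 Low microglia and close to background there. Adult samples 1, 4 and 10 had 238.23, 300.44 and 202.6 (247 ± 49.5, SD, n = 3). Low samples 3, 6, 9 and 12 had 118.59, 112.19, 136.43 and 188.7 (139 ± 34.7, SD, n = 4), at 1.06 to 1.97 times background, and High samples 2, 5, 7 and 8 had 131.47, 340.94, 375.06 and 178.64 (257 ± 120, SD, n = 4). Every Low sample was below every kept adult sample, while High samples spread across both groups. Low differed from adult by -0.84 (SE 0.23, limma adjusted p = 0.030), not a call. High minus Low was 0.78 (SE 0.34, limma adjusted p = 0.075) and was called, at 1.06, without High sample 2. High minus adult was -0.06, with a 95% interval from -0.90 to 0.78 (limma adjusted p = 0.91). Sesn1 and Sesn2 had opposite signs in Low against adult, from values near background for Sesn1 in both groups and for Sesn2 in Low.

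**Figure D2:**
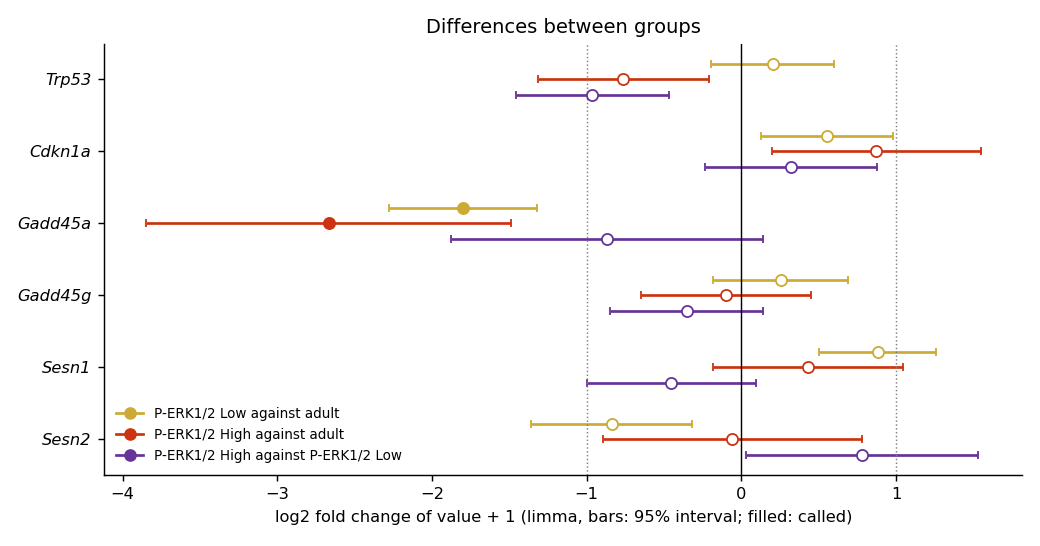
Log2 fold change of value + 1 for the 6 genes in the 3 comparisons, with 95% intervals from limma and dotted lines at the fold limit of 1 in size. Filled points are called, namely Gadd45a in Low against adult (-1.80) and in High against adult (-2.67), and open points are not.

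How far each gene moved depended on the yardstick used to scale the samples. Over the whole panel, the median of High against Low on the log2 scale was 0.26 as deposited, -0.01 with median-of-ratios scaling, 0.80 with the 6 most stable housekeeping genes, -0.11 after quantile normalization, -0.74 with scaling to summed counts and 2.15 with scaling to the positive control probes, which adjusts for the assay and not for the amount of RNA. The split of called genes moved with it, from 217 higher and 74 lower as deposited to 172 and 124, 310 and 8, 150 and 141, 59 and 311, and 659 and 0 in the same order. In Low against adult the split was 62 higher and 21 lower as deposited, against 47 and 32, 24 and 59, and 8 and 218 after quantile normalization and scaling to summed counts and positive controls. In High against adult it was 225 and 59, against 159 and 118, 340 and 8, 142 and 138, 40 and 363, and 420 and 1 in the order first given.

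Gadd45a was lower than adult under all 6 scalings, by log2 fold changes of -1.79 to -2.60 in Low and -1.50 to -4.05 in High. Trp53 in High against Low was called at -1.23 with median-of-ratios scaling, -1.27 after quantile normalization and -1.97 with summed counts, was -0.42 with the 6 housekeeping genes and turned to 1.01 with positive controls. Subtracting the median of all panel genes removes most of what a scaling adds to every gene by construction, so that a narrow range is no sign of stability. In these terms Trp53 was lower in High than in Low by 1.22 on the log2 scale as deposited, with a range over the 6 scalings from -1.23 to -1.15. Likewise Gadd45a in High against Low ran from -1.13 to -1.05, Sesn1 from -0.71 to -0.65, Sesn2 from 0.50 to 0.60 and Cdkn1a from -0.17 to 0.16.

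**Figure D3:**
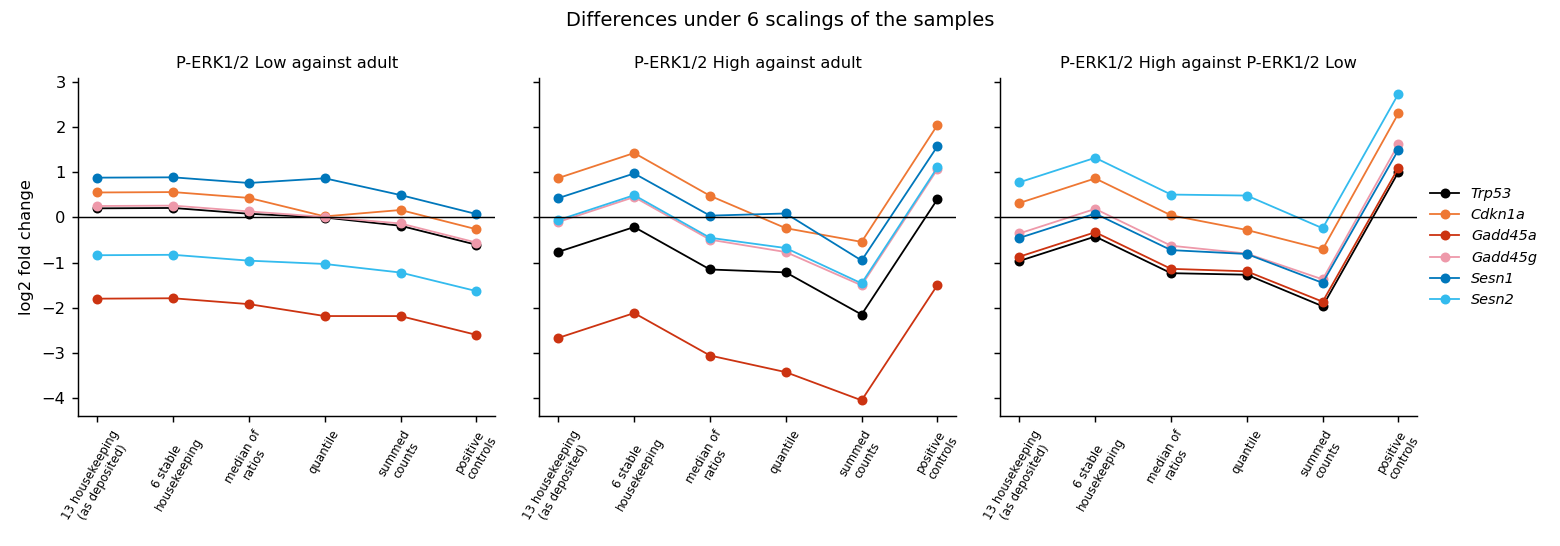
Log2 fold change of the 6 genes (vertical axis) under 6 ways of scaling the samples (horizontal axis), one panel for each comparison. Gadd45a stays below 0 against adult under all 6, at -1.79 to -2.60 in Low and -1.50 to -4.05 in High, while all 6 genes move up together in High against Low with the positive controls.

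The genes that act on p53 were described next, from a list of 10 activators, partners and inhibitors. From Low to High 6 of the 10 rose and 0 fell, with a median log2 fold change of 1.39 beside 0.26 over the panel, of which 28.2% was called higher. Mdm2, the ubiquitin ligase that removes p53 and is itself a p53 target, had 3547.16, 4165.64, 3730.36 and 3808.55 in High samples 2, 5, 7 and 8. It had 1074.07, 1297.14, 1161.03 and 1214.26 in Low samples 3, 6, 9 and 12, and 1109.49, 1374.11 and 963.61 in adult samples 1, 4 and 10. All High samples were far above all Low and kept adult samples. Excluded adult sample 11, whose summed count of 1464433 was close to the highest of High, had 4732.29, above every High sample. Its Ep300 (1285.26), Trp53bp2 (273.03), Trp73 (139.62), Tnfrsf10b (1930.61) and Cdc25a (807.46) values were also above the High means. Its Chek2 (231.92) and Prkdc (81.44) values were below the High means but above every kept adult and every Low sample. What part depth has in this was not tested. Mdm2 rose by 1.68 on the log2 scale in High against Low (SE 0.19, limma adjusted p = 3.4e-05), and Low minus adult was 0.06 (SE 0.16, limma adjusted p = 0.81). Ep300, the acetyltransferase that serves p53 as a coactivator, rose by 1.71 (SE 0.20), from 346 ± 4.73 to 1141 ± 150 (SD, n = 4 each).

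Chek2, a checkpoint kinase that phosphorylates p53, rose by 2.07 (SE 0.22), from 93.8 ± 12.1 to 401 ± 75.8. Prkdc, the DNA-dependent protein kinase, rose by 1.59, Trp73, a p53 relative, by 1.58, and Trp53bp2, a p53-binding protein that favours apoptosis genes, by 1.19. In Low, Prkdc and Trp73 were above background in 0 of 4 samples and Chek2 and Trp53bp2 in 1 of 4, so these folds start from values near background. The kinase genes Atm, Atr and Chek1 and the coactivator gene Crebbp were not called, at 0.08, 0.20, -0.28 and 0.44. The 6 called genes were higher in High under all 6 scalings, with Mdm2 at 0.66 and Trp53bp2 at 0.17 under summed counts, where 1 of the 10 was called higher and 1 lower. In Low against adult 0 of the 10 were called (median 0.07), beside 8.05% of the panel called higher and 2.73% lower. In High against adult 4 of the 10 rose, namely Prkdc, Chek2, Ep300 and Mdm2, beside 29.2% of the panel.

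Of 9 other p53 targets on the panel, 3 were called higher and 2 lower in High against Low (median -0.27), beside 28.2% and 9.61% of the panel (median 0.26). Tnfrsf10b, the TRAIL death receptor gene, had 796.1, 1412.37, 759.1 and 948.97 in High samples 2, 5, 7 and 8 and 203.29, 206.84, 232.74 and 315.87 in Low samples 3, 6, 9 and 12, and rose by 2.00 (SE 0.26, limma adjusted p = 7.9e-05). The groups did not overlap. The others called higher were Mdm2, which both lists hold, and Fdxr, a mitochondrial reductase gene that was above background in 0 of 4 Low samples and whose fold is therefore not read. The 2 called lower were Bbc3, which encodes the BH3-only protein PUMA (-1.97), and the repair gene Ddb2 (-1.12). Both were above background in 0 of 4 samples of either group, and the mean of the negative probes was itself 12.3 to 16.6 in High and 23.4 to 40.5 in Low on the normalized scale, so no direction is read from them. Bax, the effector of mitochondrial apoptosis, was 213 ± 17.1 in Low, 121 ± 34.5 in High and 137 ± 11.8 in adult samples and was not called in any comparison. Tnfrsf10b stayed higher under all 6 scalings, at 0.98 with summed counts. The same 3 were called higher and the same 2 lower in High against adult, beside 29.2% and 7.66% of the panel. Fdxr and Ddb2 were above background in 0 of 3 adult samples, so their folds in High against adult are not read either. Bbc3 was there called at -2.12 (limma adjusted p = 0.00011), from 88.1 ± 16.7 (SD, n = 3) in adult samples, above background in 3 of 3, to values above background in 0 of 4 High samples, and was not called with positive controls (-0.97) or with adult sample 11 added (-1.32). In Low against adult 1 of the 9 rose, Pcna, by 1.15 (SE 0.15, limma adjusted p = 0.0018), and 0 fell, beside 8.05% and 2.73% of the panel.

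**Figure D4:**
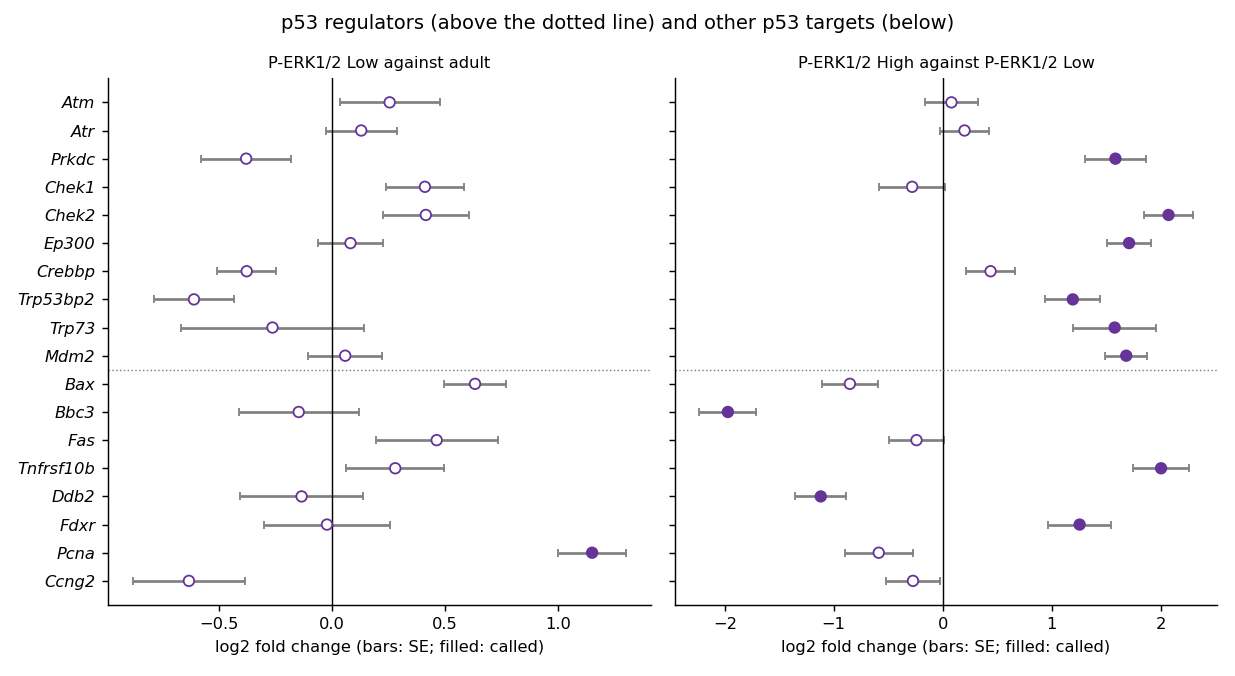
Log2 fold change with its SE for 10 p53 regulators and 8 further p53 targets (Mdm2, in both lists, is drawn once, above the dotted line), in Low against adult and in High against Low. Filled points are called. In High against Low 6 regulators are called, all to the right of 0, and in Low against adult only Pcna is called.

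Of 14 cell cycle and replication genes, which p21 acts to hold down, 9 rose in Low against adult and 0 fell, with a median log2 fold change of 1.16 beside 0.10 over the panel, of which 8.05% was called higher. Among them were the replication helicase genes Mcm5 (by 1.75, SE 0.17) and Mcm6 (by 1.50, SE 0.21), the survival and mitosis gene Birc5 (by 1.59, SE 0.22, above background in 1 of 3 adult samples) and Rrm2, a ribonucleotide reductase subunit gene (by 1.43, SE 0.26). E2f1 and Ncaph, also among the 9, were each above background in 1 of 3 adult samples. Cdkn1a values in the same Low samples were above those of all kept adult samples as deposited. The Cdkn1a difference was 0.02 after quantile normalization and -0.26 with positive controls. In High against Low 6 of the 14 rose and 0 fell (median 0.73), beside 28.2% and 9.61% of the panel, led by the phosphatase gene Cdc25a, which rose by 2.42 (SE 0.22) from 101 ± 15.5 to 544 ± 78.3, and by Cks1b and Mcm6. In Low, Cdc25a was above background in 2 of 4 samples, Cdc7 in 0 of 4 and Kif2c in 1 of 4. Their folds start from values near background. Another 6 of the 14 had negative values and were not called, among them Pttg1, the securin gene, at -0.88 (limma adjusted p = 0.0072), Pcna at -0.59 and Birc5 at -0.47. High sample 7 stood apart in part of the list. It had 114.54 for Mcm5, 33.69 for Birc5 and 268.38 for Top2a, where the other High samples had at least 463.78, 107.69 and 989.65. Its Cdc7 value (162.82) lay within the range of the other High samples, and its Cdc25a value (455.91) was just below theirs (506.39 or more). In High against adult 8 of the 14 rose and 0 fell, where 29.2% of the panel was called higher and 7.66% lower, and Pttg1 was at -0.52 and not called. With positive-control scaling 0 of the 14 were called in Low against adult, at a median of 0.34, and with summed counts 1 rose and 6 fell in High against Low, at a median of -0.29. After quantile normalization 2 were called higher and 3 lower in High against Low (median 0.41), and with summed counts 2 were called higher and 1 lower in High against adult (median 0.26). With 1 sample left out, 4 to 7 were called in High against Low. In High against adult 7 to 12 were, with 12 reached without High sample 7. With adult sample 11 added, 0 were called in either comparison with adult, at medians of 0.52 and 0.97.

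Of 5 genes of the stress MAP kinase pathway on which GADD45 proteins act, 0 were called in Low against adult, beside 10.8% of the panel. In High against Low 1 of the 5 was called higher, Mapk12, and in High against adult 2 were, Mapk12 and Mapk14 (p38 alpha, at 1.05), beside 28.2% and 29.2% of the panel. Mapk12 was above background in 0 of 4 Low and 0 of 3 adult samples, so its folds start from background. Among 9 antioxidant and autophagy genes linked to sestrins, 2 rose and 3 fell in High against Low (median -0.45), beside 28.2% and 9.61% of the panel. Srxn1, the sulfiredoxin gene, rose by 2.06 and Gclc, which encodes a subunit of the enzyme that makes the glutathione precursor, by 1.04, whereas Hmox1 fell by 1.51, Prdx1 fell by 1.51 and Txnrd1 fell by 1.36. The 3 that fell turned to 0.48, 0.47 and 0.63 under positive-control scaling. Nqo1 rose by 1.45 in Low against adult, the sole call of the 9 there, beside 10.8% of the panel. Gclc and Srxn1 rose in High against adult, and Hmox1 and Ulk1, the autophagy kinase gene, fell, Ulk1 by 1.35. These are 2 of the 9 higher and 2 lower, beside 29.2% and 7.66% of the panel. Of 10 immediate early and acute stress genes 3 rose in Low against adult, Fos by 1.80, Nfkbia by 1.24 and Egr1 by 1.09, beside 8.05% of the panel. With positive controls 0 of the 10 were called higher and 1 lower (median -0.42), with summed counts 1 was called higher, and with adult sample 11 added 0 were called. In High against Low 1 of the 10 was called higher and 1 lower, beside 28.2% and 9.61%. Atf3, a stress-induced transcription factor gene, fell by 1.49 and turned to 0.50 under positive-control scaling. Arc was called higher from values above background in 0 of 4 Low samples.

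The genes with profiles most like those of each member were listed by Pearson's r of log2 values over the 11 kept samples, among 567 genes with a mean of at least 50. These samples form 3 groups and share their scaling, so r describes mainly the group pattern and is given without a test. Gadd45a was closest to the integrin gene Itgb5 (r = 0.98), then to Sox4 (0.94) and Irak2 (0.93). Trp53 was closest to Prkar1a, Casp8 and Casp9 (each 0.95), Cdkn1a to Gsn (0.97), F3 (0.96) and Igf1 (0.95), and Gadd45g to Vps4a (0.88), Igf2r (0.87) and Ehmt2 (0.86). Sesn1 was closest to Myc (0.93), Slamf9 (0.92) and Il1rn (0.90), and Sesn2 to Crebbp (0.93), Tgfbr1 (0.89) and Osgin1 (0.88). No gene was among the 3 closest of more than 1 member.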

How the data were processed

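RNA of fixed, sorted microglia was counted with the nCounter Neuroinflammation panel in 12 samples. The authors normalized the counts in nSolver (version not given in the sources used here) and deposited them as signal, each value in the 11 kept samples being a raw count times 1 factor per sample (in sample 11, 97.9% of values, with 16 listed at 1). The 8 negative and 6 positive control probes in the same table are unscaled raw counts. Dividing by the factor gave whole numbers (within 0.1) for 100% of values in the 11 kept samples, and these counts were used for depth, background and 3 of the alternatives (summed counts, positive controls, background subtraction), so that precision at low counts is limited by counting error. All 12 columns were mapped through sample numbers, and 0 were left unmapped. Of 770 gene names, 763 matched a RefSeq symbol and 7 a synonym.

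Groups followed the labels. The 3 comparisons were each fitted on their own samples on log2(value + 1) by limma 3.58.1, run under R 4.3.3, after checking on simulated data, with no filter and no covariate. Nothing states that samples of a group were prepared independently beyond separate pools, so p-values measure the spread between these samples. Exact permutation tests used scipy 1.17.1. The genes named are the 6 members, the genes of each list that were called or otherwise moved most, and the 3 genes most alike to each member. The members and lists were chosen with earlier results of these data known, and p-values were adjusted over all 770 genes. The alternatives tried were other pseudocounts (0.1 or 20), a filter at a mean of 50, 5 other scalings, background subtraction, a shared spread, a gene-by-gene test, adjusted p thresholds, leaving out each sample and adding adult sample 11. Promoter windows came from RefSeq on GRCm38.p6.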

Additional observations from a re-analysis of the deposited data

Results flagged for a closer look

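Adult sample 11, which the submitters marked as excluded for poor quality and which entered the comparisons only where named, held 4 of the 6 genes above every kept adult sample. Its Gadd45g value was 308.71, its Cdkn1a value 4305.67, its Sesn1 value 136.52 and its Sesn2 value 352.15, where the highest kept adult values were 294.62, 1787.5, 65.8 and 300.44. The other 2 lay below every kept adult sample, Trp53 at 117.9 against 177.9 or more and Gadd45a at 55.85 against 664.64 or more. Over the whole panel 58.6% of genes lay above every kept adult sample in this sample and 26.6% below. The geometric mean of its positive control probes was 286, against 954 to 1460 in the 11 other samples, and its summed raw count was 1464433. What sets this sample apart was not tested.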

How the results depend on the processing

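Of 378 recomputed differences of the 6 genes, 318 kept their direction and their side of the thresholds for a call, 31 gained a call in the same direction, 3 lost one and 26 changed sign, of which Gadd45g and Sesn1 in High against Low were called in the new direction with positive controls. The 3 lost were Gadd45a in both comparisons with adult when sample 11 was added (-0.84 and -1.71) and Gadd45a in High against adult in the gene-by-gene test. The mean filter, the shared spread, the gene-by-gene test and the adjusted p thresholds leave the log2 fold change as it is. They could therefore not change a direction, and they count among those that kept it. Scaling to the positive controls and subtracting the negative controls were chosen after seeing the data. No paired analysis was run, because each sample has its own number and the labels do not link High samples to Low samples. Whether High and Low samples came from the same pools of mice is not stated in the sources used here. They were tested as independent.

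In High against Low, members called went from 0 to 1 with median-of-ratios scaling, 1 with the 6 housekeeping genes, 1 after quantile normalization, 4 with summed counts, 4 with positive controls and 1 at an adjusted p with no fold limit, and to 0 to 2 with 1 sample left out. All genes called went from 291 to 659 with positive controls and 189 gene by gene, and to 235 to 310 with 1 sample left out. In Low against adult, members called went from 1 to 2 after quantile normalization, 2 with summed counts, 2 with positive controls, 2 with background subtracted, 3 with no fold limit and 0 with sample 11, and stayed at 1 with 1 sample left out. All genes called went from 83 to 226, 54, 201 and 34 with positive controls, gene by gene, with no fold limit and with sample 11, and to 75 to 95 with 1 sample left out. In High against adult, members called went from 1 to 2 with median-of-ratios scaling, 2 with the 6 housekeeping genes, 2 after quantile normalization, 4 with summed counts, 3 with positive controls, 0 gene by gene, 3 with no fold limit and 0 with sample 11. All genes called went from 284 to 173 gene by gene and 49 with sample 11, and to 225 to 303 with 1 sample left out.

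Signs turned in High against Low with positive controls for Gadd45a (1.10), Gadd45g (1.62), Sesn1 (1.50) and Trp53 (1.01), with the 6 housekeeping genes for Gadd45g (0.19) and Sesn1 (0.086), after quantile normalization for Cdkn1a (-0.28) and with summed counts for Cdkn1a (-0.71) and Sesn2 (-0.24). In Low against adult they turned with positive controls for Gadd45g (-0.56), Cdkn1a (-0.26) and Trp53 (-0.61), with summed counts for Gadd45g (-0.13) and Trp53 (-0.18), and after quantile normalization for Trp53 (-0.0012). In High against adult they turned with positive controls for Gadd45g (1.07), Sesn2 (1.11) and Trp53 (0.40), with the 6 housekeeping genes for Gadd45g (0.45) and Sesn2 (0.49), with summed counts for Cdkn1a (-0.54) and Sesn1 (-0.95) and after quantile normalization for Cdkn1a (-0.24). Sesn2 in High against adult ran from -0.28 to 0.22 with 1 sample left out and was above 0 without High sample 2, High sample 8 or adult sample 4. The cause of these changes was not tested beyond the shift of all genes that each scaling makes. Depth limits Sesn1 in adult samples and Sesn1 and Sesn2 in Low samples, which lay near background.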
